A study of Mus musculus with 31 samples.

Results

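The transcripts described here were those of the opioid system of the brain: the 3 peptide precursor genes Penk, Pdyn and Pnoc, and the 4 receptor genes Oprm1, Oprd1, Oprk1 and Oprl1. The 7 genes were chosen by name among the 52636 genes of a table of TPM, transcript abundances scaled by gene length and to a fixed total per library, all 7 were found there, and all 7 passed the filter on low values in every comparison. RNA came from the right caudate putamen (CPu, the dorsal striatum) of 31 female mice aged 8 to 11 weeks of the strain labelled C57BL/6NTac-Brd1. Brd1+/- mice carried a heterozygous targeted deletion within Brd1, a gene for a bromodomain protein of histone acetylation complexes, in every cell of the body, and WT mice were matched to them by litter. Mice were injected with saline (vehicle) or with imipramine (IMN, a tricyclic antidepressant) at 10 mg/kg, which gave 8 WT vehicle, 7 Brd1+/- vehicle, 8 WT IMN and 8 Brd1+/- IMN mice. Every mouse, vehicle mice included, had been injected repeatedly and had gone through tail suspension, open field and forced swim tests before the tissue was taken, and no untested mouse was among them. The comparisons ask whether Brd1 dosage alters transcript levels in the CPu, and whether IMN alters them in either genotype.

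Opioid peptides are cut from larger precursor proteins. Penk gives the enkephalins, which act mainly on the delta receptor (Oprd1) and the mu receptor (Oprm1), Pdyn gives the dynorphins, which act mainly on the kappa receptor (Oprk1), and Pnoc gives nociceptin, the ligand of the related receptor Oprl1. All of the receptors couple to inhibitory G proteins and lower the firing of neurons or their release of transmitter. In the striatum Penk is the classical marker of the spiny projection neurons of the indirect pathway, which carry the dopamine receptor Drd2, and Pdyn belongs to those of the direct pathway, which carry Drd1. Oprm1 is densest in the patches called striosomes.

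The difference between the precursors can be read in their coding sequences. An opioid peptide starts with a core of 5 codons that read tyrosine, glycine, glycine, phenylalanine and then methionine or leucine, and the precursor is cut at pairs of basic residues beside it. Searched in frame on the coding strand of the GENCODE transcripts (build GRCm38), the core was found 7 times in Penk, 6 times with methionine and 1 time with leucine, and 3 times in Pdyn, each time with leucine. It was found 0 times in Pnoc, which holds 1 nociceptin core, with phenylalanine in the first place and threonine in the fifth. A methionine core and the leucine core of Penk, all 3 cores of Pdyn and the nociceptin core of Pnoc are printed because they set apart the 3 kinds of ligand measured here. Capitals mark the core and small letters the codons on either side.
Penk, methionine core at codon 100: aagaagTACGGAGGCTTCATGaaacgg
Penk, leucine core at codon 231: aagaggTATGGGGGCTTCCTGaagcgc
Pdyn, leucine core at codon 166: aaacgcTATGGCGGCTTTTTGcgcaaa
Pdyn, leucine core at codon 202: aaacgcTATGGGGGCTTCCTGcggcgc
Pdyn, leucine core at codon 221: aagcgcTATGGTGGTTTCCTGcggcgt
Pnoc, nociceptin core at codon 141: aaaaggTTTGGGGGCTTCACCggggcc
Codons are counted from 1 at the start codon. Codons for a pair of basic residues stood on both sides of 5 of the 7 Penk cores and of 3 of the 3 Pdyn cores. The 15 bases of the Penk leucine core and of the second Pdyn core were the same. The 4 receptors were near relatives: their coding sequences, 1104 to 1197 bases long, were identical at between 67.7% (Oprm1 and Oprl1) and 71.0% (Oprm1 and Oprd1) of aligned bases.

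In the annotation of build GRCm38, Penk lies on the minus strand at chr4:4133531-4138819, Pdyn on the minus strand at chr2:129686565-129699844 and Pnoc on the minus strand at chr14:65400673-65425472. Oprm1 lies on the plus strand at chr10:6758506-7038198, Oprd1 on the minus strand at chr4:132110726-132144486, Oprk1 on the plus strand at chr1:5588466-5606131 and Oprl1 on the plus strand at chr2:181715016-181720985. A830012C17Rik overlaps Penk on the other strand and Ipcef1 overlaps Oprm1 on the other strand, and whether the libraries kept strand is not given in the sources used here, so reads of these pairs cannot be told apart with certainty. Values are for all spliced forms of a gene together.

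TPM is scaled by gene length, so levels can be set side by side between genes, and the precursors stood far apart. Penk had a median of 2536 TPM over the 31 mice and was the highest member in 31 of 31 mice, its median rank being 29 among all genes. Pdyn followed with a median of 52.2 TPM, above Oprk1 and Oprm1 in 31 of 31 mice, above Oprd1 in 30 and above Oprl1 in 29. Pnoc was the lowest, with a median of 0.644 TPM, and was listed at 0 in WT vehicle mice 6 and 8 and in WT IMN mouse 7. Penk exceeded Pdyn by a median of 31.8 times in WT vehicle, 45.9 times in Brd1+/- vehicle, 40.7 times in WT IMN and 54.4 times in Brd1+/- IMN mice, but single mice ran from 10.7 to 86.3 times and the groups overlapped. Among receptors Oprk1 had the highest median, 21.9 TPM, followed by Oprd1 at 13.5, Oprl1 at 11.5 and Oprm1 at 6.46. The order of neighbours was not the same in each mouse: Oprk1 was above Oprd1 in 23 of 31 mice, Oprd1 above Oprl1 in 18 and Oprl1 above Oprm1 in 26. Oprk1 made up a median of 37.2% to 43.6% of the summed receptor TPM in the 4 groups.

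**Figure D1:**
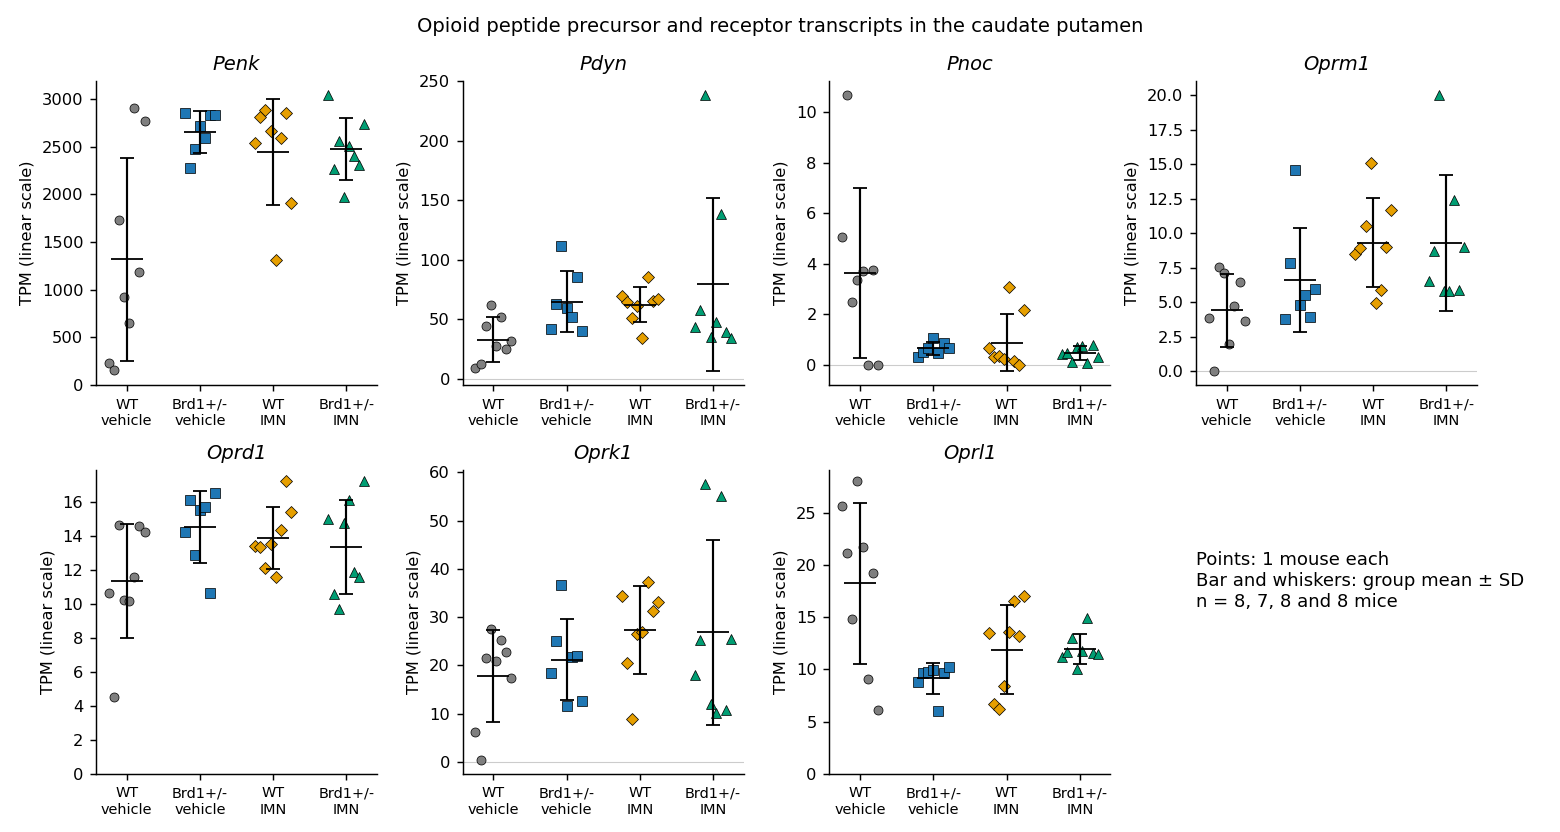
Each panel plots the TPM of 1 gene (linear axis) in the 4 groups, with 1 point per mouse and the group mean ± SD. WT vehicle mice were spread from 154 to 2912 TPM for Penk, while all Brd1+/- vehicle mice sat between 2278.5 and 2855 TPM, and Brd1+/- IMN mice 3 and 6 stood above the rest of their group for Pdyn and Oprk1.

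The punches differed in their tissue markers, which are set beside most results below. Whether tissue content caused any difference between groups was not tested. Brd1, the targeted gene, was lower in every Brd1+/- mouse than in any WT mouse of the same treatment, at a mean of 13.4 ± 2.02 against 22.5 ± 2.97 TPM under vehicle and 12.8 ± 1.04 against 19.9 ± 2.67 TPM under IMN (SD). The 6 markers of spiny neurons were present in all groups and the 9 cortical excitatory neuron markers were low in most punches. The cortical markers summed to a median of 1254 TPM in WT vehicle mice (range 9.22 to 1822), against 122 (15.8 to 220) in Brd1+/- vehicle, 55.5 (8.35 to 1043) in WT IMN and 104 (13.4 to 362) in Brd1+/- IMN mice. WT vehicle mice 1 to 5 and 7 and WT IMN mice 5 and 8 were above every Brd1+/- punch in the mean of these markers, whereas WT vehicle mice 6 and 8 were among the lowest. Spiny neuron markers summed to between 171 and 7000 TPM in WT vehicle mice and to between 3321 and 6276 TPM in all others, and WT vehicle mouse 2 held more cortical than spiny neuron marker by their mean log2 values. WT vehicle mouse 7, labelled female, had 26.8 TPM summed over 4 Y-linked genes, where no other mouse exceeded 0.171. In bulk tissue fewer cells of a type and less RNA per cell cannot be told apart, and the p-values rest on the spread between single mice.

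Under vehicle, Penk, Pdyn and Oprl1 differed between genotypes at p under 0.01 by limma, Penk and Pdyn being higher and Oprl1 lower in Brd1+/- mice. Penk was 154 TPM in the lowest, 1053 in the median and 2912 in the highest WT mouse, and 2278.5, 2723 and 2855 TPM in Brd1+/- mice. Of the 8 WT mice 6 lay below every Brd1+/- mouse, while mouse 6 with 2912 TPM lay above every Brd1+/- mouse and mouse 8 with 2775 TPM lay among them. The mean was 2.01 times as high in Brd1+/- mice, and the log2 fold change on log2(TPM + 1), the scale of every fit given here, was 1.59 ± 0.54 (SE, limma adjusted p = 0.0717). Pdyn was 9.48, 29.7 and 61.8 TPM in the lowest, median and highest WT mouse and 40.7, 59.3 and 111 TPM in Brd1+/- mice. All Pdyn values of 5 WT mice were below those of the Brd1+/- group, and the log2 fold change was 1.09 ± 0.36 (limma adjusted p = 0.0677). Pnoc was lower in the mean, 0.639 against 3.63 TPM, but its WT values included mice listed at 0 and a highest value of 10.7 TPM, and the difference of -1.12 ± 0.43 did not pass the threshold of 0.01 (limma adjusted p = 0.0989).

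Of the receptors, Oprl1 fell. It was 6.13, 20.2 and 28.0 TPM in the lowest, median and highest WT vehicle mouse against 5.96, 9.66 and 10.2 TPM in Brd1+/- mice. The values of 6 WT mice were above every Brd1+/- value, those of mice 6 and 8 were not, and the log2 fold change was -0.81 ± 0.26 (limma adjusted p = 0.0658). Oprm1 had means of 6.62 TPM in Brd1+/- and 4.41 TPM in WT mice, with a difference of 0.61 ± 0.40 (limma adjusted p = 0.309). For Oprd1, means of 14.5 and 11.3 TPM gave a difference of 0.38 ± 0.19 (limma adjusted p = 0.182), and for Oprk1 means of 21.2 and 17.8 TPM gave 0.55 ± 0.54 (limma adjusted p = 0.503). The WT group held the lowest value of each of these 3 receptors, in mouse 2: Oprm1 was listed at 0, Oprd1 was at 4.52 TPM and Oprk1 at 0.424 TPM. The 3 members called were set in a comparison in which 13.6% of 23200 genes passed p under 0.01, 1.47% higher and 12.1% lower, so that a lower receptor was among many lower genes. The median log2 fold change was 0.55 over the members and -0.13 over all genes tested. When TPM was rescaled by medians of ratios, the median over all genes moved from -0.13 to -0.00072 and the calls from 342 higher and 2811 lower to 899 higher and 1236 lower, with Oprl1 at -0.63 ± 0.22 (limma adjusted p = 0.114), above the threshold. At an FDR of 5% limma called 0 genes and 0 of the 7 members, although 7168 genes and 4 members had an unadjusted p under 0.05. That count turned on the mice and the fit: without WT vehicle mouse 6 or 8 limma called 4563 or 5482 genes at an FDR of 5%, and a fit of all 4 groups called 4963. Penk, Pdyn, Pnoc and Oprl1 were among them in each of the 3 fits. The fit of all 4 groups pools spreads that differed. The SD of Penk was 80.9% of its mean in WT vehicle mice and 8.17% to 22.6% in the other groups. Its SE was 0.41 in that fit, against 0.54 with the 2 groups alone, so these calls are not added support.

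**Figure D2:**
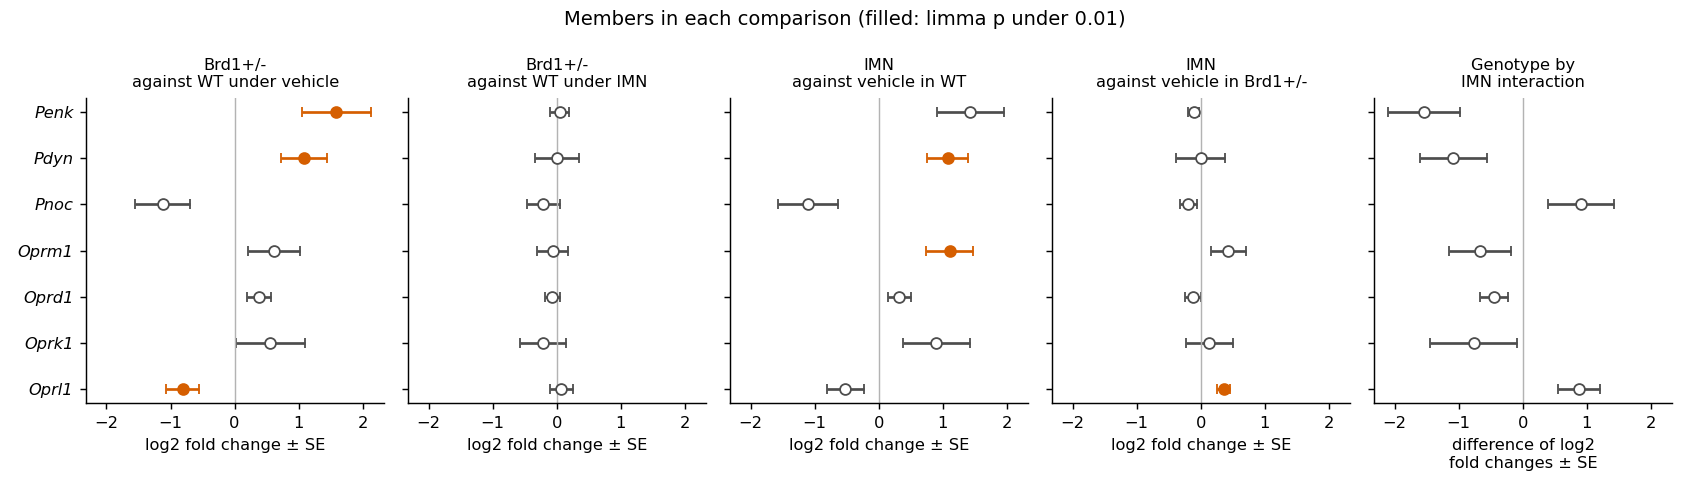
Log2 fold change ± SE of each member on log2(TPM + 1) in the 4 pairwise comparisons and, in the last panel, the difference of the IMN fold changes between genotypes (Brd1+/- minus WT), filled where limma p was under 0.01. Differences of 1 log2 unit or more were confined to comparisons that hold the WT vehicle mice, and the estimates between genotypes under IMN lay between -0.21 and 0.07.

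These differences changed when tissue markers entered the fit and when mice were left out. When the cortical marker mean entered the fit, the genotype difference under vehicle was 0.63 ± 0.45 for Penk (limma adjusted p = 0.705) and 0.86 ± 0.42 for Pdyn (limma adjusted p = 0.575). It was -0.27 ± 0.17 for Oprl1 (limma adjusted p = 0.67) and -0.16 ± 0.23 for Pnoc (limma adjusted p = 0.865). In this fit 0 of the 7 members and 494 of 23200 genes passed p under 0.01. With the spiny neuron marker mean the difference was 0.28 ± 0.19 for Penk (limma adjusted p = 0.644), 0.52 ± 0.34 for Pdyn (limma adjusted p = 0.634) and -0.42 ± 0.26 for Oprl1 (limma adjusted p = 0.618). There again 0 members passed, against 302 of 23200 genes. Leaving out WT vehicle mouse 2 alone gave 1.23 for Penk (limma adjusted p = 0.103), 0.93 for Pdyn (limma adjusted p = 0.11) and -0.76 for Oprl1 (limma adjusted p = 0.105). Then 0 of the 3 passed 0.01, against 2352 of 22913 genes. Leaving out mouse 7, which had Y-linked transcripts, likewise left 0 of these 3 genes at p under 0.01, against 2213 of 22915 genes. Again 0 of the 3 passed without WT vehicle mouse 1 or 5, or without Brd1+/- vehicle mouse 2, 3, 5 or 6. Over the 15 fits that left out 1 mouse the log2 fold change stayed between 1.23 and 1.835 for Penk. It ran from 0.88 to 1.25 for Pdyn and from -0.99 to -0.705 for Oprl1, so the lost calls were not particular to mouse 2 or 7. Against only WT vehicle mice 6 and 8, a choice made after seeing the data, Penk differed by -0.10 ± 0.10 (limma adjusted p = 0.945), Pdyn by 0.56 ± 0.34 (limma adjusted p = 0.945) and Oprl1 by 0.24 ± 0.20 (limma adjusted p = 0.945). In that fit Pnoc, listed at 0 in both of these WT mice, was higher in Brd1+/- mice by 0.70 ± 0.16 (limma adjusted p = 0.945, called at p under 0.01).

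**Figure D3:**
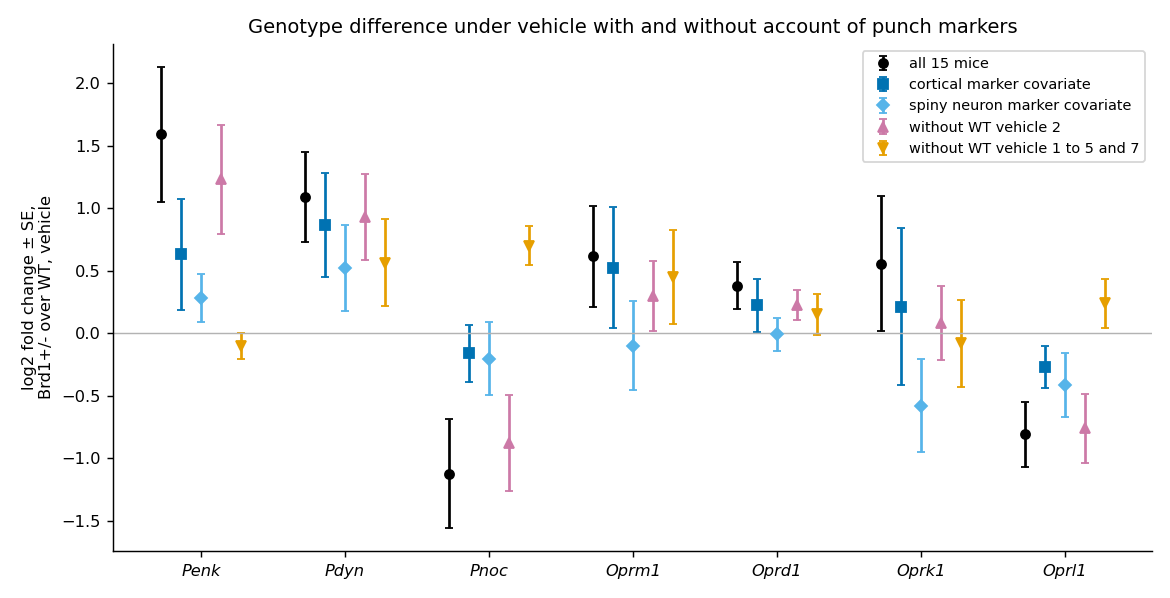
Log2 fold change ± SE of each member between Brd1+/- and WT mice under vehicle, with all mice, with either marker mean as a covariate, without WT vehicle mouse 2, and without the 6 WT vehicle mice above every Brd1+/- punch in cortical markers. Penk went from 1.59 with all mice to -0.10 against the 2 remaining WT mice, and Pdyn from 1.09 to 0.56.

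Penk was then set against the genes of its own neurons. The mean log2 level of 4 indirect-pathway markers (Drd2, Adora2a, Gpr6 and Sp9) was subtracted from that of Penk in each mouse, and the remainder was 4.85 ± 0.10 in Brd1+/- and 4.82 ± 0.59 in WT mice under vehicle (SD). They differed by 0.04 (exact permutation p = 0.892, two-sided, adjusted p = 0.978 over 8 such tests). For the other comparisons the difference was 0.002 between genotypes under IMN (exact permutation p = 0.978), 0.09 for IMN in WT (exact permutation p = 0.69) and 0.06 for IMN in Brd1+/- mice (exact permutation p = 0.467). Single WT vehicle mice moved both comparisons that hold them. Without mouse 1 the difference was -0.077 between genotypes under vehicle (exact permutation p = 0.966) and -0.021 for IMN in WT (exact permutation p = 0.987). Without mouse 5 it was -0.00033 between genotypes under vehicle. Without mouse 2, Penk relative to its markers was higher by 0.22 in Brd1+/- than in WT vehicle mice (exact permutation p = 0.035, unadjusted) and by 0.28 in WT IMN than in WT vehicle mice (exact permutation p = 0.00513, unadjusted). Pdyn relative to 4 direct-pathway markers (Drd1, Tac1, Isl1 and Slc35d3) was -0.43 ± 0.56 in Brd1+/- and 0.03 ± 1.25 in WT mice under vehicle (SD, difference -0.46, exact permutation p = 0.418). WT vehicle mouse 2 held the highest of these WT values, 2.51, the next being 0.90. Leaving out 1 mouse gave differences from -0.67 to -0.11. The other 3 differences lay between -0.34 and 0.09 with exact permutation p of 0.524 or more.

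Under IMN, the members did not separate by genotype. Penk was 1969, 2453 and 3046 TPM in the lowest, median and highest Brd1+/- mouse and 1317, 2627 and 2888 TPM in WT mice, a difference of 0.05 ± 0.15 (limma adjusted p = 0.998). Pdyn had medians of 45.5 TPM in Brd1+/- and 65.3 TPM in WT mice but a mean of 79.4 against 62.6 TPM, with Brd1+/- mice 3 and 6 at 239 and 138 TPM, and the difference was 0.0065 ± 0.35 (limma adjusted p = 1.0). The medians of Oprm1 were 7.61 and 8.97 TPM, those of Oprd1 13.3 and 13.5 TPM, those of Oprk1 21.7 and 29.1 TPM and those of Oprl1 11.6 and 13.3 TPM, in Brd1+/- and WT mice in this order, and the ranges overlapped for every receptor. None of the 7 members had p under 0.01 or under 0.05 by limma, the lowest being 0.425 for Pnoc, in a comparison in which 0.703% of 23339 genes passed p under 0.01, 0.189% higher and 0.514% lower, and 0.00428% passed an FDR of 5%. Standard errors ran up to 0.37, for Oprk1.

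IMN in WT mice was accompanied by higher Pdyn and Oprm1. The WT vehicle mice of this comparison are those of the genotype comparison above, so the values are not independent of it. Pdyn was 34.5, 65.3 and 85.3 TPM in the lowest, median and highest IMN mouse, against 9.48, 29.7 and 61.8 TPM under vehicle. With 5 IMN mice above every vehicle mouse, the log2 fold change was 1.08 ± 0.32 (limma adjusted p = 0.141). Oprm1 was 4.95, 8.97 and 15.1 TPM in IMN mice, against 0, 4.29 and 7.57 TPM under vehicle. With 6 IMN mice above every vehicle mouse, the log2 fold change was 1.11 ± 0.37 (limma adjusted p = 0.141), and without WT vehicle mouse 2, where Oprm1 was listed at 0, it was 0.79 ± 0.24 (limma adjusted p = 0.221). The gene that overlaps Oprm1, Ipcef1, had a median of 2.58 TPM under IMN and 39.1 TPM under vehicle.

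Penk, at 1317, 2627 and 2888 TPM under IMN, and Pnoc, at 0, 0.322 and 3.07 TPM, had differences of 1.43 ± 0.52 (limma adjusted p = 0.149) and -1.10 ± 0.47 (limma adjusted p = 0.178). The differences were 0.32 ± 0.17 for Oprd1 (limma adjusted p = 0.27), 0.90 ± 0.52 for Oprk1 (limma adjusted p = 0.303) and -0.52 ± 0.29 for Oprl1 (limma adjusted p = 0.281). The 2 members called stood in a comparison in which 6.95% of 23579 genes were called, 1.35% being higher and 5.6% lower. At an FDR of 5% the share was 0.00424%, with 0 members. Without WT vehicle mouse 6 limma called 1176 genes at an FDR of 5%, with Pdyn among them, and without mouse 8 it called 2459, with Penk and Pdyn. In a fit of all 4 groups the count was 2291, with Penk (limma adjusted p = 0.0294), Oprm1 (limma adjusted p = 0.0398) and Pnoc (limma adjusted p = 0.0497) among them. That fit, too, pools the unequal spreads of the groups. After rescaling by medians of ratios the calls went from 318 higher and 1321 lower to 666 higher and 748 lower, and Pdyn was at 1.198 and Oprm1 at 1.19. With the cortical marker covariate Pdyn was at 0.79 ± 0.34 (limma adjusted p = 0.744) and Oprm1 at 0.90 ± 0.41 (limma adjusted p = 0.759), neither of them called, and with the spiny neuron marker covariate at 0.56 ± 0.27 (limma adjusted p = 0.822) and 0.47 ± 0.28 (limma adjusted p = 0.826). Without the punches above every Brd1+/- punch in cortical markers, which left 2 vehicle and 6 IMN mice, Penk was at -0.06 ± 0.08 (limma adjusted p = 0.85), while Pdyn was at 0.67 ± 0.20 (limma adjusted p = 0.46) and Oprm1 at 1.00 ± 0.26 (limma adjusted p = 0.428), both of them still called at p under 0.01. In fits that left out 1 mouse, Pdyn stayed called in 16 of 16 and Oprm1 in 7 of 16. The Oprm1 call was lost without WT vehicle mouse 1, 5 or 8 or without WT IMN mouse 1, 2, 3, 4, 7 or 8, at log2 fold changes of 1.01 to 1.12.

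IMN in Brd1+/- mice left 1 member called, the nociceptin receptor Oprl1, which rose. Oprl1 was 8.80, 9.61, 9.71, 9.94, 5.96, 9.66 and 10.2 TPM in vehicle mice 1 to 7, and 11.1, 11.7, 12.96, 10.0, 11.7, 14.9, 11.5 and 11.4 TPM in IMN mice 1 to 8. Of the 8 IMN mice 7 were above every vehicle mouse, and only IMN mouse 4 overlapped. The mean was 11.9 ± 1.45 TPM under IMN and 9.13 ± 1.46 TPM under vehicle (SD), or 1.31 times as high, and the log2 fold change was 0.36 ± 0.10 (limma adjusted p = 0.426). In this comparison 1.83% of 23020 genes passed p under 0.01, 0.869% higher and 0.964% lower, and 0 passed an FDR of 5%. The cortical marker sums of the groups overlapped widely (15.8 to 220 and 13.4 to 362 TPM), and with the cortical covariate Oprl1 was at 0.36 ± 0.11 (limma adjusted p = 0.386). With the spiny neuron covariate it was at 0.29 ± 0.12 (limma adjusted p = 0.836), and in a fit of all 4 groups, whose spread includes the WT vehicle mice, at 0.36 ± 0.23 (limma adjusted p = 1.0). Neither of these 2 fits called it at p under 0.01. Each of the 15 fits that left out 1 mouse called it, as did the fit with the cortical covariate.

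The ligand of that receptor, Pnoc, was low in both groups of Brd1+/- mice, at medians of 0.644 TPM under vehicle and 0.445 TPM under IMN (difference -0.19 ± 0.13, limma adjusted p = 0.807). Penk had medians of 2723 and 2453 TPM (-0.11 ± 0.09, limma adjusted p = 0.851). Pdyn had medians of 59.3 and 45.5 TPM (-0.0010 ± 0.38, limma adjusted p = 0.999). Oprm1 had medians of 5.51 and 7.61 TPM (0.43 ± 0.28, limma adjusted p = 0.793), Oprd1 of 15.6 and 13.3 TPM (-0.12 ± 0.13, limma adjusted p = 0.891) and Oprk1 of 21.8 and 21.7 TPM (0.13 ± 0.37, limma adjusted p = 0.966).

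The difference of the IMN effect between genotypes was tested over all 31 mice. It was -1.54 ± 0.57 for Penk (limma adjusted p = 0.261), 0.88 ± 0.33 for Oprl1 (limma adjusted p = 0.261) and -1.08 ± 0.52 for Pdyn (limma adjusted p = 0.304), each with an adjusted p of 0.26 or more. For the other 4 members limma p was 0.0535 or more. At p under 0.01 limma called 0 of the 7 members and 3.74% of 25394 genes. Of all genes, 2.97% were called with a higher and 0.78% with a lower IMN fold change in Brd1+/- than in WT mice. The IMN effects on Pdyn and Oprm1 in WT mice and on Oprl1 in Brd1+/- mice were called in 1 genotype each. Their differences between genotypes (Oprm1 -0.67 ± 0.48, limma adjusted p = 0.484) did not pass p under 0.01. Without the punches above every Brd1+/- punch in cortical markers, the difference for Penk was -0.044 (limma adjusted p = 1.0) and for Oprl1 -0.030 (limma adjusted p = 1.0).

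How the members varied together was examined in the 23 mice outside the WT vehicle group, on log2(TPM + 1) with each group centred on its mean, over 35 relations with permutation p-values (100000 permutations within groups) adjusted by Benjamini-Hochberg. Mice left out in pairs below were those farthest from the median of a measure before centring. Penk went down as the cortical marker mean went up, with Pearson r = -0.878 and Spearman rho = -0.903 (permutation p = 1e-05 for both, the smallest they can give, adjusted p = 0.00035), and r = -0.838 without WT IMN mice 5 and 8. With the spiny neuron marker mean Penk went up, with r = 0.842 and rho = 0.806 (permutation p = 0.00024 and 7e-05, adjusted p = 0.0028 and 0.00122), and r = 0.763 without WT IMN mouse 5 and Brd1+/- IMN mouse 3. With the cortical markers r within groups was -0.788 in Brd1+/- vehicle, -0.908 in WT IMN and -0.884 in Brd1+/- IMN mice. Pnoc went the other way, with r = 0.822 and rho = 0.753 (permutation p = 0.00014 and 0.00035, adjusted p = 0.00245 and 0.00408), and r = 0.68 without the same 2 mice, although within Brd1+/- vehicle mice r was 0.294. For Pdyn the pooled relation did not pass (r = -0.165, rho = -0.0761, permutation p = 0.455 and 0.735, adjusted p = 0.549 and 0.887). Its groups went different ways, with r of 0.659 in Brd1+/- vehicle, -0.46 in WT IMN and -0.291 in Brd1+/- IMN mice. Oprl1 did not pass either (r = 0.3, rho = 0.253, permutation p = 0.287 and 0.304, adjusted p = 0.467 and 0.507). Penk and Pnoc ran opposite to each other at r = -0.779 and rho = -0.635 (permutation p = 0.00387 and 0.00657, adjusted p = 0.0193 and 0.0383), but WT IMN mice 5 and 8 carried much of this: r was -0.473 without them and 0.187 within Brd1+/- vehicle mice.

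**Figure D4:**
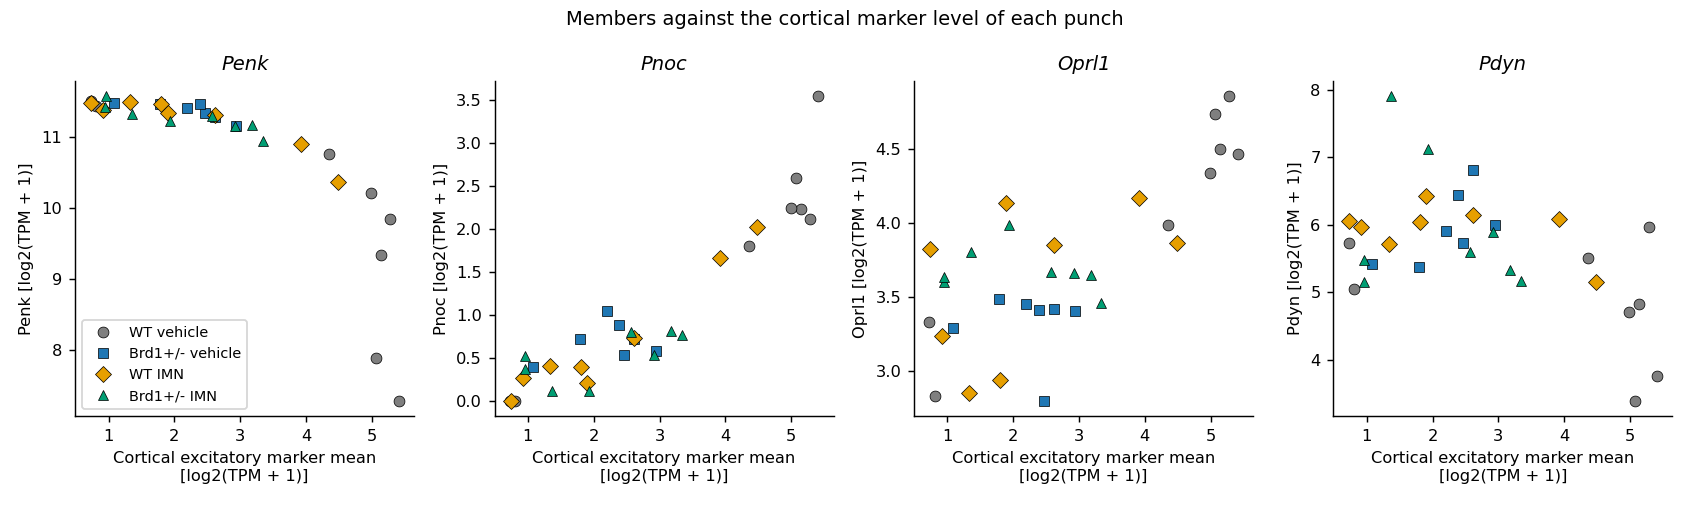
Penk, Pnoc, Oprl1 and Pdyn in each mouse against the mean of 9 cortical excitatory neuron markers, both on log2(TPM + 1), with symbols for the 4 groups. Of the WT vehicle mice 6 lie to the right, beside WT IMN mice 5 and 8, with 154 to 1728 TPM of Penk, 2.50 to 10.7 TPM of Pnoc and 14.85 to 28.0 TPM of Oprl1, while WT vehicle mice 6 and 8 lie at the left among the other groups.

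The dynorphin precursor and the receptor of its own peptides moved together. Pdyn and Oprk1 were related with r = 0.734 and rho = 0.71 (permutation p = 0.00085 and 0.0005, adjusted p = 0.00744 and 0.00437). Without Brd1+/- IMN mice 3 and 6, the highest of the 23 mice for both genes, r was 0.559. Without WT IMN mouse 3 and Brd1+/- IMN mouse 5, the lowest for Oprk1, it was 0.802. Within groups r was 0.711 in Brd1+/- vehicle, 0.397 in WT IMN and 0.848 in Brd1+/- IMN mice. Brd1+/- IMN mice 3 and 6 had 57.7 and 55.2 TPM of Oprk1, where the other 6 mice of the group had 10.2 to 25.5 TPM, and they also had the highest Oprm1 (20.0 and 12.4 TPM), the highest Oprl1 (12.96 and 14.9 TPM) and the lowest Pnoc (0.0858 and 0.0814 TPM) of that group. Their spiny neuron marker means were also the lowest of the group, at 8.52 and 8.55 on log2(TPM + 1) where the other 6 had 8.65 to 9.10, and within that group Pdyn and these markers had r = -0.769. The part of the spiny neuron content in the Pdyn and Oprk1 relation was not tested.

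Pdyn and Oprm1 were related less firmly, with r = 0.679 (permutation p = 0.00133, adjusted p = 0.00931) but rho = 0.471 (permutation p = 0.023, adjusted p = 0.101), and r = 0.502 without Brd1+/- IMN mice 3 and 6. Oprm1 and Oprk1 had r = 0.549 (permutation p = 0.01, adjusted p = 0.0389) and rho = 0.458 (permutation p = 0.0347, adjusted p = 0.121), with r of 0.944 in Brd1+/- IMN and -0.247 in WT IMN mice. Oprk1 and Oprl1 had r = 0.503 and rho = 0.591 (permutation p = 0.00229 and 0.00291, adjusted p = 0.0134 and 0.0204), r = 0.414 without Brd1+/- vehicle mouse 5 and WT IMN mouse 3, and r of -0.174 within Brd1+/- vehicle mice. Oprd1 was related to the spiny neuron markers at r = 0.543 (permutation p = 0.00598, adjusted p = 0.0262) and rho = 0.546 (permutation p = 0.0145, adjusted p = 0.0725), and r was 0.447 without WT IMN mouse 5 and Brd1+/- IMN mouse 3. All points share the TPM scaling within a mouse.

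**Figure D5:**
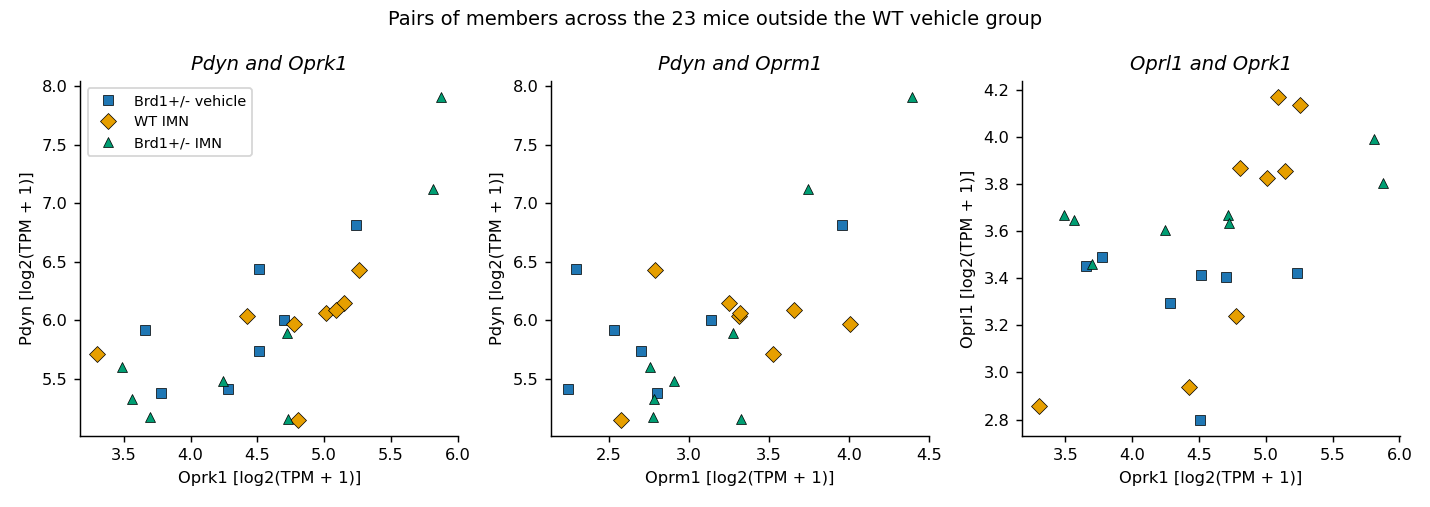
Pdyn against Oprk1, Pdyn against Oprm1 and Oprl1 against Oprk1 on log2(TPM + 1), 1 point per mouse for the 23 mice outside the WT vehicle group. Brd1+/- IMN mice 3 and 6 stand at the upper right of the first panel, and Pearson r over group-centred values was 0.734, 0.679 and 0.503 in the 3 panels.

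The genes most like each member over all 31 mice, out of 17391 genes with a mean of at least 1 TPM, are given as a description. WT vehicle mice weigh heavily in these values. Nearest to Penk were Pcp4l1 (Pearson r = 0.993), Gng7 (0.987) and Gm39043 (0.986), and nearest to Pdyn were Arhgap6 (0.935), Xkr8 (0.912) and the GABA-synthesising enzyme Gad2 (0.891). Nearest to Pnoc were Hapln4 (0.976), Cd34 (0.968) and Chrd (0.966). Oprm1 was nearest to the phosphodiesterases Pde4b (0.927) and Pde1c (0.914) and to Tshz1 (0.898), which was among the striosome markers listed. For Oprd1 they were Klhl2 (0.896), Plcb1 (0.895) and Myt1l (0.888), for Oprk1 the glutamate receptor subunit Gria1 (0.873), Papln (0.847) and Qpct (0.845), and for Oprl1 Pdk1 (0.889), Creg2 (0.868) and Man1c1 (0.867).

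Around the members, 43 further genes of opioid peptide and receptor biology were followed, of which 42 were tested. Under vehicle 1 of them was higher and 11 were lower in Brd1+/- mice at p under 0.01, or 2.38% and 26.2%, against 1.47% and 12.1% of all genes tested. The median log2 fold change was -0.21, against -0.13 over all genes tested. None of the 8 enzymes of peptide processing passed. Of 9 peptide-degrading enzymes Ace, a peptidase that cuts short peptides including enkephalins, rose (1.34 ± 0.43, limma adjusted p = 0.0645), and Dpp3, a peptidase of the cytosol, fell (-0.33 ± 0.10, limma adjusted p = 0.0635). Of 11 receptor G proteins and effectors tested 5 fell, among them Gnaz, an inhibitory G protein alpha subunit (-0.55 ± 0.13, limma adjusted p = 0.0556), and Kcnj9, a subunit of the potassium channel that opioid receptors open (-1.34 ± 0.34, limma adjusted p = 0.0556). Of 10 receptor regulators 3 fell, with Grk6 (-0.35 ± 0.08, limma adjusted p = 0.0556) and Grk2 (-0.82 ± 0.23, limma adjusted p = 0.0556), both receptor kinases, in front. Among other opioid-binding proteins the atypical receptor Ackr3 fell (-0.77 ± 0.23, limma adjusted p = 0.0572). These values hold the same WT vehicle punches as those of the members.

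In the other comparisons fewer of the 42 genes passed. Between genotypes under IMN 1 was called, Thop1, an oligopeptidase, which fell (-0.23 ± 0.08, limma adjusted p = 0.998), where 0.514% of all genes were called lower. With IMN in WT mice 0 rose and 4 fell (9.52% of the 42, against 5.6% of all genes tested), of which 2 serve peptide processing: Pcsk1, the convertase that cuts precursors such as those of Penk and Pdyn (10.0 ± 4.18 against 22.9 ± 13.7 TPM (SD), -0.98 ± 0.32, limma adjusted p = 0.141), and Scg5, the chaperone of the sister convertase Pcsk2 (-0.28 ± 0.09, limma adjusted p = 0.141). Dpp3 (-0.29 ± 0.10, limma adjusted p = 0.141) and Gnaz (-0.40 ± 0.13, limma adjusted p = 0.141) were the other two. With IMN in Brd1+/- mice limma called 0 of the 42. Where the IMN effect was compared between genotypes, Dpp3 (0.33 ± 0.12, limma adjusted p = 0.261), Kcnj9 (1.12 ± 0.40, limma adjusted p = 0.261) and Grk6 (0.29 ± 0.10, limma adjusted p = 0.261) passed, which is 7.14% of the 42 against 2.97% of all genes in that direction. The comparison of IMN in WT and the interaction hold the same WT vehicle punches. With the cortical marker covariate the calls over all genes went from 1639 to 320 for IMN in WT. For the interaction they went from 951 to 241, and the pathway genes named were not followed in those fits. Pomc, the precursor of beta-endorphin, had group medians between 0.899 and 1.07 TPM.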

How the data were processed

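RNA of CPu punches was sequenced by the authors as 50 bp single-end reads (BGISEQ-500), aligned with HISAT2 2.1.0 to GRCm38 and quantified with StringTie 1.3.4. The deposited values are TPM per gene, 1 column per mouse, summing to between 999787 and 999918. TPM keeps no depth, so the depth of each library is unknown here and no counting interval is given. Because the values are not counts, log2(TPM + 1) was analysed with limma 3.58.1 (R 4.3.3; empirical Bayes with trend, two-sided) on the groups compared, keeping genes that exceeded 0.1 TPM in 7 or more mice of a fit, with Benjamini-Hochberg adjustment over all genes tested and calls at p under 0.01 and at an FDR of 5%, thresholds taken from the study's methods. Fold changes on this scale understate those of low genes. Groups and mouse numbers came from the sample titles. The steps were tested on simulated data. Genes named were the members, Brd1, the 3 genes most correlated with each member, and in each pathway list up to 2 genes in each direction with the smallest p among those under 0.01. The members and lists were chosen with earlier results of these data known, so they are not independent of them. Mouse numbers did not pair the mice. Alternatives were another pseudocount, other filters, median-of-ratios scaling, a replicate block, 1 fit of all groups, sample weights, marker covariates and mice left out. No amino acid sequences were used here. The values of 1 gene of the pathway lists are not reported here.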

Additional observations from a re-analysis of the deposited data

Results flagged for a closer look

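Of 28 sets of values (7 members in 4 groups), 5 held a mouse set apart from the rest of its group by Dixon's test. It was run on linear TPM, not on the log2 scale of the fits. Its rate of about 1 in 20 by chance holds for normally distributed values, and a skew in TPM can raise it. The 28 sets also share the same mice. WT vehicle mouse 2, whose punch held more cortical than spiny neuron marker, had the highest Pnoc of its group at 10.7 TPM (next 5.05 TPM) and the lowest Oprd1 at 4.52 TPM (next 10.2 TPM). Oprm1 stood at 14.6 TPM in Brd1+/- vehicle mouse 3 (next 7.81 TPM) and at 20.0 TPM in Brd1+/- IMN mouse 3 (next 12.4 TPM). Oprl1 was 5.96 TPM in Brd1+/- vehicle mouse 5 (next 8.80 TPM), and without that mouse the IMN difference of Oprl1 in Brd1+/- mice was 0.27 instead of 0.36, with p still under 0.01 by limma.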

How the results depend on the processing

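The limits come first. The WT vehicle punches vary most in cortical and spiny neuron markers, and every comparison with them depends on how that is treated. Values without read counts cannot show which low levels are certain, so Pnoc and Oprm1 values listed at 0 are not evidence of absence. In the pairwise fits of all mice of the groups compared, without weights or a block, the members called had adjusted p-values above 0.05. Without WT vehicle mouse 6 or 8 some members fell below that value. The fit of all 4 groups pools groups of unequal spread. The cause of each change below was not tested.

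Genotype under vehicle, with 3153 genes and 3 members at p under 0.01: the counts were 5005 genes in a fit of all 4 groups, 6137 with sample quality weights, 494 with the cortical marker covariate, 302 with the spiny neuron marker covariate and 188 genes without the punches above every Brd1+/- punch in cortical markers, an alternative chosen after seeing the data. Members called were 4 in a fit of all 4 groups (Penk, Pdyn, Oprl1 and Pnoc), 3 with weights (Penk, Oprl1 and Pnoc), 1 without a filter (Oprl1), 0 with either covariate, 0 without WT vehicle mouse 2 and 1 (Pnoc) without the punches just named. In fits that left out 1 mouse, genes ran from 2036 to 5154 and members from 0 to 4. Penk kept p under 0.01 in 3, Pdyn in 5 and Oprl1 in 5 of these 15 fits, and Pnoc passed without WT vehicle mouse 6 or 8. Genotype under IMN, with 164 genes and 0 members: 97 genes at a mean TPM of at least 1, and 127 to 252 genes leaving out 1 mouse. IMN in WT, with 1639 genes and 2 members: 3424 genes in a fit of all 4 groups, 4798 with weights, 320 with the cortical covariate, 305 with the spiny neuron covariate, 1036 without WT vehicle mouse 2 and 429 without the punches above every Brd1+/- punch. Members called were 1 with a pseudocount of 0.1 (Pdyn), 4 in a fit of all 4 groups, 4 with weights (each time Penk, Pdyn, Pnoc and Oprm1), 2 without the punches above every Brd1+/- punch (Pdyn and Oprm1) and 0 with either covariate. Leaving out 1 mouse gave 905 to 3576 genes and 1 to 4 members. IMN in Brd1+/-, with 422 genes and 1 member: 0 members in a fit of all 4 groups and with the spiny neuron covariate. Interaction, with 951 genes and 0 members: 3458 genes and 3 members with weights, 241 genes with the cortical and 128 with the spiny neuron covariate, 605 without WT vehicle mouse 2, 145 without the punches above every Brd1+/- punch, and 546 to 2571 genes and 0 to 2 members leaving out 1 mouse.

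Reversed signs were found for members that were not called, except where said. Under vehicle the genotype difference with the spiny neuron covariate was -0.10 for Oprm1, -0.58 for Oprk1 and -0.0097 for Oprd1. Without the punches above every Brd1+/- punch it was -0.082 for Oprk1, 0.24 for Oprl1 and -0.10 for Penk, both called with all mice, and 0.70 for Pnoc. Between genotypes under IMN, Pdyn was at -0.19 and Penk at -0.020 with weights, Pdyn at -0.0050 with the cortical covariate, and Pdyn at -0.10, Penk at -0.15 and Pnoc at 0.17 without the punches above every Brd1+/- punch. Leaving out 1 mouse gave -0.22 to 0.041 for Oprm1, -0.27 to 0.12 for Pdyn, -0.034 to 0.15 for Oprl1 and -0.074 to 0.094 for Penk. For IMN in WT, Oprk1 was at -0.049 and Oprd1 at -0.013 with the spiny neuron covariate, and Oprl1 at 0.39 and Penk at -0.063 without the punches above every Brd1+/- punch. For IMN in Brd1+/-, Oprk1 was at -0.35 and Oprd1 at 0.058 with the spiny neuron covariate, and leaving out 1 mouse gave -0.062 to 0.28 for Oprk1 and -0.28 to 0.14 for Pdyn. For the interaction, Oprm1 was at 0.00027, Oprk1 at 0.23 and Pnoc at -0.040 with the spiny neuron covariate, and Oprl1 at -0.030 and Pnoc at -0.53 without the punches above every Brd1+/- punch. Pnoc could not be tested at a mean TPM of at least 1 in the comparisons under IMN and within Brd1+/- mice, nor for IMN in WT without the punches above every Brd1+/- punch.

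Penk relative to its markers was at -0.085 (genotype under vehicle) and -0.026 (IMN in WT) with a pseudocount of 0.1, and at 0.22 and 0.28 without WT vehicle mouse 2. Leaving out 1 mouse gave -0.077 to 0.22 for genotype under vehicle, -0.037 to 0.033 for genotype under IMN and -0.021 to 0.28 for IMN in WT. Pdyn relative to its markers was at 0.020 for IMN in WT without WT vehicle mouse 2, and leaving out 1 mouse gave -0.29 to 0.081 for genotype under IMN, -0.55 to 0.020 for IMN in WT and -0.17 to 0.24 for IMN in Brd1+/-.

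Same-numbered mice did not deviate together in every pair (correlations from -0.447 to 0.495), so the replicate block rests on a shared number only. With the replicate block, 4110 genes and 4 members (Penk, Pdyn, Oprl1 and Pnoc) passed p under 0.01 for genotype under vehicle, where WT vehicle mouse 8 had no partner and dropped out. The block gave 157 genes for genotype under IMN, 1197 for IMN in WT and 496 for IMN in Brd1+/-, where Pdyn was at 0.11, and 1086 genes and 1 member (Penk) for the interaction. Penk, Pdyn, Oprl1 and Pnoc had adjusted p-values of 0.0343, 0.0286, 0.0252 and 0.0427 for genotype under vehicle with the block by limma.

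At an FDR of 5%, limma called 0 genes for genotype under vehicle with all mice, 1833 at a mean TPM of at least 1 (0 members), 4963 in a fit of all 4 groups, 6854 with weights, 3583 with the replicate block, and 4563 and 5482 without WT vehicle mouse 6 and 8. Members were 4 in each of the last 5 fits, with adjusted p for Penk, Pdyn, Oprl1 and Pnoc of 0.0107, 0.0398, 0.0178 and 0.0334 in the fit of all 4 groups and 0.00721, 0.0465, 0.00225 and 0.00347 with weights. For IMN in WT the counts were 1 gene with all mice, 2291 in a fit of all 4 groups (3 members), 4857 with weights (4 members, Pdyn at an adjusted p of 0.0224), 1176 without WT vehicle mouse 6 (1 member) and 2459 without mouse 8 (2 members). The interaction had 2624 genes and 3 members with weights and 0 genes with all mice in the fit as reported. The cause was not tested.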
